A study of Mus musculus with 73 samples.

Results

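Stroma of the villus tip was compared with stroma of the villus bottom, both cut by laser capture microdissection (LCM) from frozen sections of mouse jejunum. A sample entered where its label named the top or the bottom of the villus, which gave 16 of the 29 microdissected samples and 16 of the 73 samples of the series. They came from 5 C57BL/6 male mice, 3 months old by their labels, fed regular chow and killed by cervical dislocation, with no transgene or treatment in either group. Each mouse gave both zones, as 2 sections per zone in mice 1 to 3 and 1 section per zone in mice 4 and 5. A section pooled the stromal cores of several villi, so a value is an average over all cell types in the cut area. The sections of a mouse were averaged within a zone and the zones were compared within mice (n = 5 mice). Values are given in ppm, parts per 1000000. The denominator, once abundant enterocyte genes had been removed, was the summed TPM (transcript abundance corrected for length and library) of genes that stayed below 1% of the sample, so a very abundant gene can reach a value that is large against it.

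The lamina propria of the villus holds fibroblasts, telocytes, vessels, smooth muscle strands, macrophages, lymphocytes and plasma cells. Plasma cells of the gut make IgA, whose units are joined by the J chain before the antibody is carried through the epithelium. Macrophages beneath the epithelium make complement C1q, whose A, B and C chains are encoded next to each other. Telocytes, a subepithelial mesenchymal cell type marked by PDGFRa, secrete BMP and Wnt ligands. Hedgehog ligands from the epithelium act on the mesenchyme, where FoxF factors, *Hhip* and muscle genes are among the responding genes.

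More genes were lower than higher at the tip at an unadjusted p, and the antibody genes *Igkc* and *Igha* had the highest levels among the lower ones. Of 12562 genes with a zone mean above 5 ppm, limma placed 0 below the threshold of 0.05 after adjustment by Benjamini and Hochberg (0% higher and 0% lower at the tip), and the smallest adjusted p was 0.129. At an unadjusted p under 0.05, limma counted 264 genes higher at the tip (2.10%) and 911 lower (7.25%), or 103 and 578 when the mouse was left out as a block. The tip was higher in all 5 mice for 454 genes (3.61%) and lower in all 5 for 792 (6.30%). Values of the 5 mice did not overlap between the zones for 15 genes that were higher at the tip (0.119%) and for 107 that were lower (0.852%). These shares are the background for every list below, and no single gene below is past the adjusted threshold. The median log2 difference of all genes, tip minus bottom, was -0.06 and a gene's 95% interval extended by a median of 1.6 to each side. A two-sided exact sign-flip permutation test over 5 mice cannot give a p below 0.0625, the value of every gene that moved one way in all 5.

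The split between the directions depended on the samples and on the scale. Without mouse 1 the unadjusted counts were 485 higher and 925 lower, and without mouse 3 they were 155 and 775. Lower genes made up 77.5% of these calls, 58.7% after quantile normalization and 25.9% when each sample was scaled to the same sum of 79 ribosomal protein genes. That last scaling shifted the median of all genes to 0.77, and values under it are read against that shift. Ribosomal protein genes summed to 162651, 162586, 158488, 70346 and 124943 ppm at the bottom of mice 1 to 5, and to 216252, 129085, 155979, 19159 and 41258 at the tip. Mice 4 and 5 had less ribosomal protein RNA at the tip than mice 1 to 3 in either zone. The part of this in the results was not tested beyond the rescaling.

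Other measures of the samples did not separate the zones. Genes above 0 numbered 11933 to 16654 at the bottom and 7929 to 17306 at the tip, the lowest being the tip of mouse 2, where the second section had 5481. The removed enterocyte genes held 13.2% to 30.0% of TPM at the bottom and 4.97% to 40.4% at the tip, and the mean difference of -0.46 percentage points was smaller than its spread over mice, an SD of 8.44 (exact sign-flip permutation test, two-sided, p = 0.875). Enterocyte RNA was thus present in both zones, and the stromal genes *Pdgfra*, *Col1a1* and *Sparc* were above 0 in both zones of all 5 mice. Log2 values of sections from 1 mouse correlated with r of 0.62 to 0.72 at the bottom and 0.43 to 0.65 at the tip, across genes and over 3 pairs each.

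**Figure D1:**
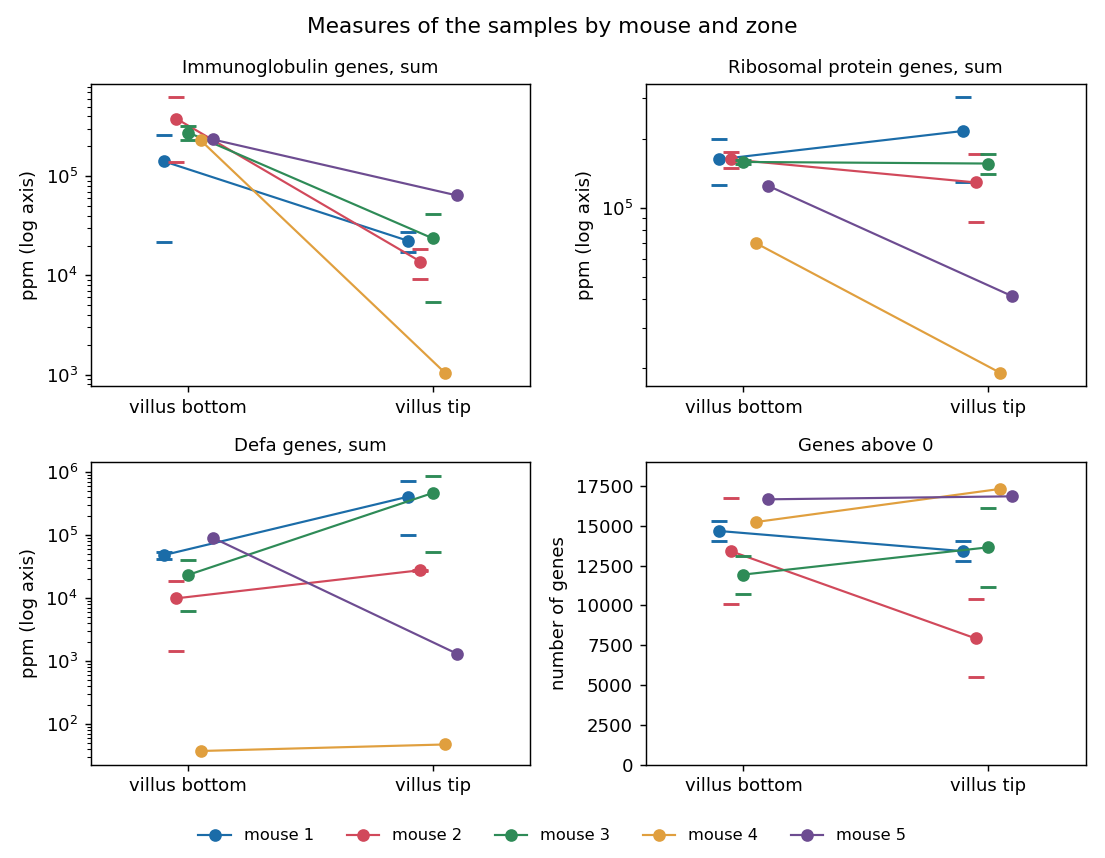
Immunoglobulin, ribosomal protein and *Defa* gene sums in ppm (log axes) and the number of genes above 0 (linear axis) at the villus bottom and tip. Circles are mouse means joined within each of 5 mice, and dashes are the single sections of mice 1 to 3. Immunoglobulin sums lie at 141273 to 381495 ppm at the bottom and 1046 to 63935 at the tip, while the other measures overlap.

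*Igkc* and *Igha* were the most abundant of the genes lower at an unadjusted p. *Igkc*, the constant region of the kappa light chain (chromosome 6 of GRCm38, 70726435 to 70726966), had 72953, 244680, 184619, 154324 and 142847 ppm at the villus bottom of mice 1 to 5. At the tip it had 9695, 8956, 12734, 241 and 39208 ppm. Every bottom value was above every tip value. The log2 difference was -4.54 ± 0.87 (SE, n = 5 mice), a 23.3-fold lower level at the tip (adjusted p = 0.223 from limma). *Igha*, the constant region of the IgA heavy chain (chromosome 12, 113254830 to 113260236), had 44581, 128608, 81303, 72758 and 86130 ppm at the bottom and 3839, 4619, 10298, 1.44 and 22630 at the tip. It too had no overlap, with a log2 difference of -5.62 ± 1.52 (SE, n = 5). *Iglc2*, a lambda light chain constant region, ranged from 1404 to 7007 ppm at the bottom and from 7.38 to 1049 at the tip, a log2 difference of -4.17 ± 0.95 (SE, n = 5), and its reads may be shared with near-identical lambda constant genes. *Ighm*, the IgM heavy chain, overlapped between the zones, at 10.4 to 117 ppm against 0.771 to 31.3, and was lower at the tip in all 5 mice. These immunoglobulin genes were picked after their values were seen. Of 246 immunoglobulin genes 79 were tested, 30 higher and 49 lower at the tip. At an unadjusted p under 0.05, 0 were higher and 11 lower (13.9%), against 7.25% of all genes lower. The median log2 difference of the 79 was -0.80, or -0.44 under ribosomal protein scaling. Of them 3 did not overlap between the zones, against 0.852% of all genes.

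*Jchain*, which encodes the J chain of polymeric IgA (chromosome 5, 88519809 to 88527891), followed the antibody genes. It had 10434, 26436, 15394, 27882 and 18815 ppm at the bottom and 916, 1059, 1864, 18.9 and 7899 at the tip, again without overlap. Its log2 difference was -4.58 ± 1.05 (SE, n = 5). Mouse 4 gave the lowest tip value and mouse 5 the highest for *Igkc*, *Igha* and *Jchain* alike. Leaving out each mouse in turn kept *Igkc* between -5.21 and -3.35, and without mouse 4 its value was the weakest of these. With mice 4 and 5 both left out, *Igkc* (-3.85), *Igha* (-3.77) and *Jchain* (-3.73) passed the threshold in limma, with adjusted p of 0.0061, 0.0063 and 0.014. They also passed when samples were scaled to ribosomal protein genes, at -3.92, -5.07 and -4.08 with adjusted p of 0.011, 0.025 and 0.025 from limma. Both alternatives were chosen after the data were seen.

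Single sections of a mouse also differed. The first bottom section of mouse 1 had 131150 ppm of *Igkc* and the second 14756, below the highest tip section, at 39208 ppm in mouse 5. Of the 8 bottom sections, 7 exceeded all 8 tip sections for *Igkc*, *Igha*, *Jchain*, *Derl3*, *Cd79a* and *Xbp1*. The villus center lay between 946 ppm of *Igkc* in mouse 4 and 320193 in mouse 5, and the crypt of mice 1 to 3 between 13857 and 39022. In each of mice 1 to 3 the villus bottom held more *Igkc* than the crypt, the center or the tip. In mouse 5 the center held more than the bottom or the tip.

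**Figure D2:**
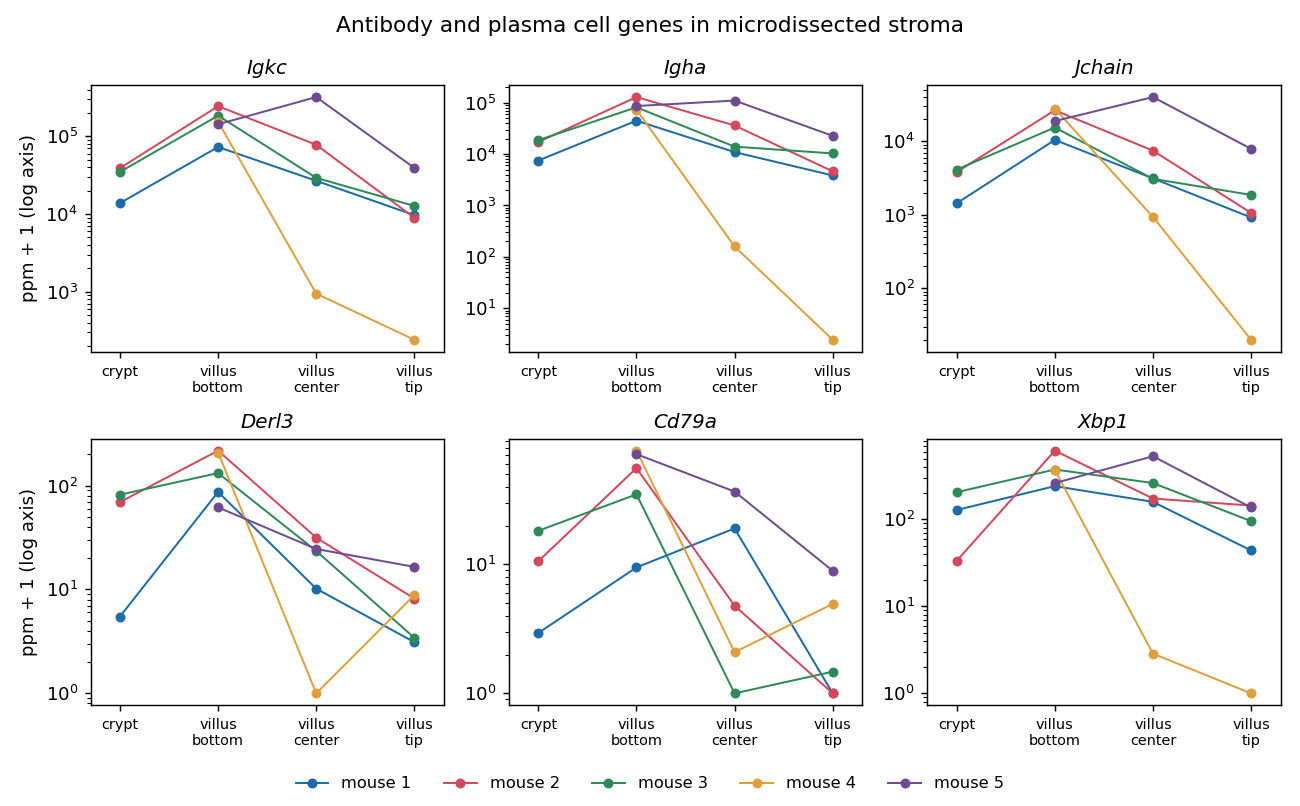
Level of 6 antibody and plasma cell genes along 4 stromal zones, as ppm + 1 on log axes, with 1 line per mouse (the crypt was cut in mice 1 to 3 only). Each of the 5 lines ends lower at the villus tip than at the villus bottom in each panel. The *Igkc* line of mouse 5 peaks at the villus center. The *Igkc* means lie at 72953 to 244680 ppm at the bottom and 241 to 39208 at the tip.

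The list of B cell and plasma cell genes showed the same order. Of its 13 genes 12 were in the table and all of these were tested, with 0 higher and 12 lower at the tip and a median log2 difference of -3.11. At an unadjusted p under 0.05, 0 were higher and 8 lower, against 7.25% of all genes, and 7 of the 12 did not overlap between zones, against 0.852%. The median stayed between -3.77 and -2.44 in all 24 alternatives. In bulk tissue a smaller number of plasma cells and less RNA per cell cannot be told apart. *Derl3*, part of the machinery that removes misfolded proteins from the endoplasmic reticulum of secretory cells (chromosome 10, 75893413 to 75895941), had 85.8, 216, 131, 207 and 60.7 ppm at the bottom and 2.11, 7.17, 2.42, 7.83 and 15.5 at the tip. The zones did not overlap, and the log2 difference was -4.25 ± 0.62 (SE, n = 5, adjusted p = 0.134 from limma).

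The promoter of *Derl3* is shown because the gene had the smallest p of the plasma cell list. It spans chr10:75893148-75893447 on the plus strand of GRCm38.p6 (RefSeq), 250 bases before to 50 after the start. Capitals mark CCAAT and CCACG with 9 bases between them, read on the opposite strand, the letters of the endoplasmic reticulum stress response element that ATF6 and XBP1 are known to use.
Derl3: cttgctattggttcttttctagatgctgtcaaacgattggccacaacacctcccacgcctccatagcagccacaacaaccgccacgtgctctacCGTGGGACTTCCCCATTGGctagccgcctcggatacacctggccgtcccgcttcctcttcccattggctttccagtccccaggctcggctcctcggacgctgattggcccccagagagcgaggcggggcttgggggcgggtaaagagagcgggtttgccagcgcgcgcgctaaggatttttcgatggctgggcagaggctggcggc
Both strands were searched, and 39 of 32851 promoters in the table (0.119%) held this arrangement. The arrangement was looked for after the sequence had been seen, and the match describes the letters only. *Xbp1* itself, the transcription factor of the secretory program (chromosome 11, 5520659 to 5525893), had 240, 617, 374, 370 and 261 ppm at the bottom and 43.0, 143, 94.6, 0 and 136 at the tip. Its zones did not overlap, with a log2 difference of -3.20 ± 0.96 (SE, n = 5).

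The antigen receptor chain *Cd79a* (chromosome 7, 24897381 to 24902197) had 8.47, 54.7, 33.9, 75.1 and 70.5 ppm at the bottom and 0, 0, 0.472, 3.94 and 7.92 at the tip. Its highest tip value, in mouse 5, was just under its lowest bottom value, in mouse 1. The log2 difference was -4.11 ± 0.64 (SE, n = 5). *Sdc1*, the plasma cell surface proteoglycan CD138, ranged from 18.4 to 191 ppm at the bottom and from 1.15 to 14.8 at the tip (log2 difference -3.01 ± 0.58, SE, n = 5). *Irf4* and *Pou2af1*, regulators of plasma cell and B cell fate, also did not overlap, at -2.66 and -3.40. *Cd79b* was lower in 4 of 5 mice. Of the remaining members, *Tnfrsf17*, *Ms4a1* and *Prdm1* had log2 differences of -1.46, -0.15 and -0.09. Under ribosomal protein scaling the last pair had 0.55 and 0.56, below its median of 0.77 for all genes. *Ms4a1*, which encodes CD20 of mature B cells, gave no such gap, at 5.29 to 22.5 ppm against 0 to 99.0. Control epithelium of the series came from other mice, older saline-injected males with an *Lgr5-GFP-DTR* knock-in. This epithelium also held some of these transcripts, at 145 CPM (counts scaled to the library total) for *Xbp1*, 38 for *Jchain* and 35.7 for *Sdc1*. Against these, *Derl3* had 0.418 and *Cd79a* 0.470.

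Macrophage genes formed the next group. Of 14 genes 12 were in the table and 11 were tested, with 0 higher and 11 lower at the tip. At an unadjusted p under 0.05, 6 were lower, against 7.25% of all genes, and the list's median log2 difference was -1.85. *C1qc* (chromosome 4, 136889804 to 136893065) had 144, 382, 322, 232 and 224 ppm at the bottom and 2.00, 33.5, 155, 5.39 and 29.3 at the tip. The tip of mouse 3 was within the bottom range and the other 4 tips were below it. The log2 difference was -3.64 ± 0.69 (SE, n = 5, adjusted p = 0.223 from limma).

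*C1qb* and *C1qa*, the other chains of C1q, had the same direction in all 5 mice. *C1qb* (chromosome 4, 136880129 to 136886187) had 19.8, 329, 173, 145 and 89.1 ppm at the bottom and 1.17, 0, 69.0, 10.9 and 2.73 at the tip, a log2 difference of -4.23 ± 0.88 (SE, n = 5). *C1qa* (chromosome 4, 136895917 to 136898803) had 52.2, 226, 222, 60.4 and 100 ppm against 6.97, 16.1, 99.1, 0 and 14.4, a log2 difference of -3.26 ± 0.69 (SE, n = 5). Mouse 3 had the highest tip value of all 3 chains. Single sections were less separated: of the 8 bottom sections, 2 exceeded all 8 tip sections for *C1qa*, 3 for *C1qb* and 6 for *C1qc*. The promoters of *C1qb* (chr4:136886151-136886450) and *C1qc* (chr4:136892865-136893164), both on the minus strand of GRCm38.p6 (RefSeq), are shown because these neighbouring genes moved together in each mouse.
C1qb: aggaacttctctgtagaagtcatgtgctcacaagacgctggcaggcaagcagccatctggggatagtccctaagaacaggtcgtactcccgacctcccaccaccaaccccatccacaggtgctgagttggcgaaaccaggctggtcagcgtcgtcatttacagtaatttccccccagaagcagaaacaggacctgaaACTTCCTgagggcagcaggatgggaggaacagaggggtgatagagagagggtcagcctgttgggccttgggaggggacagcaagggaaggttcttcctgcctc
C1qc: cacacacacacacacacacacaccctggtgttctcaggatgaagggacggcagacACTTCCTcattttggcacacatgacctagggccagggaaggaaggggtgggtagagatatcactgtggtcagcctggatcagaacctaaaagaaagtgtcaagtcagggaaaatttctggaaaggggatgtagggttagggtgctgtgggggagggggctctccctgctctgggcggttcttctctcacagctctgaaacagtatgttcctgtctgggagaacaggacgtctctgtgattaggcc
Capitals mark AGGAAGT read on the opposite strand, a core that ETS family factors such as PU.1 are known to bind. Searched on both strands, it occurred once in each of these promoters and in 3072 of 32851 promoters (9.35%). This core too was chosen after the sequences had been seen.

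The remaining macrophage genes were less uniform in direction across mice. *Lyz2*, encoding lysozyme of myeloid cells, had 23.0 to 392 ppm at the bottom and 5.78 to 66.3 at the tip and was lower in 4 of 5 mice (log2 difference -2.20 ± 0.65, SE, n = 5). *Csf1r*, the receptor for macrophage colony-stimulating factor, had 5.14, 77.0, 48.1, 52.1 and 34.0 ppm at the bottom and 0.839, 107, 10.0, 1.39 and 2.31 at the tip, so mouse 2 went the other way. Its log2 difference was -2.26, and -3.22 without the second tip section of mouse 2. The fractalkine receptor *Cx3cr1* was lower in all 5 mice, at 8.06 to 66.9 ppm against 2.31 to 8.82. *Cd68* and *Mertk* had log2 differences of -0.30 and -0.08. Under ribosomal protein scaling they had 0.59 and 0.72, below its median of 0.77 for all genes. The defining marker *Adgre1* was not analysed here.

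Lymphocyte genes were mixed. Of 15 tested T cell and innate lymphocyte genes 4 were higher and 11 lower, and their median log2 difference was -0.87. Of these, 0 and 4 had an unadjusted p under 0.05, beside 2.10% and 7.25% of all genes. The median of the list was -0.11 under ribosomal protein scaling. *Cd3g*, a chain of the T cell receptor complex (chromosome 9, 44969572 to 44980431), had 24.5, 43.5, 116, 32.7 and 41.9 ppm at the bottom and 2.21, 16.4, 5.99, 3.61 and 12.3 at the tip, without overlap. Its partner chains *Cd3e* and *Cd3d* overlapped and had log2 differences of -0.17 and -0.62, or 0.79 and 0.31 under ribosomal protein scaling. *Cd247*, another chain of that complex, and the natural killer cell receptor *Klrd1* were lower by -1.70 and -2.14, in 5 and 4 of 5 mice. *Cd8b1* was higher at the tip in 4 of 5 mice, at 11.1 to 98.9 ppm against 14.6 to 41.9, with a log2 difference of 0.69 ± 0.61 (SE, n = 5).

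*Tnfrsf18*, which encodes the T cell costimulatory receptor GITR (chromosome 4, 156026164 to 156028895), had the smallest p of all genes. It had 18.8, 45.1, 28.2, 111 and 48.9 ppm at the bottom and 0, 0, 0.131, 4.94 and 0 at the tip. No tip mean reached a bottom mean, and the log2 difference was -4.88 ± 0.61 (SE, n = 5, adjusted p = 0.129 from limma). Of the 8 bottom sections, 6 exceeded all 8 tip sections, and the lowest bottom section was at 0. *Madcam1*, the vessel addressin that guides lymphocytes into the gut (chromosome 10, 79664559 to 79668537), had 31, 13.9, 16.2, 164 and 7.04 ppm at the bottom and was listed at 0 at the tip of all mice but mouse 4, at 4.29. *St6gal1*, a sialyltransferase also abundant in B cells (chromosome 16, 23224740 to 23360350), had 186, 831, 285, 143 and 125 ppm against 0, 24.3, 9.57, 7.60 and 41.6. It had no overlap and a log2 difference of -4.59 ± 0.76 (SE, n = 5).

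Others of the 10 lower genes with the smallest p were lower in all 5 mice as well. The interferon-induced *Ifitm1* had 560, 149, 257, 104 and 475 ppm at the bottom and 72.7, 0, 3.39, 16.4 and 18.0 at the tip, without overlap. The membrane protein gene *Tmem176b* ran from 89.7 to 867 ppm at the bottom and from 1.36 to 84.2 at the tip. *Fam174a* ran from 13.3 to 87.2 ppm against 0.545 to 9.30. *Sept4*, a septin, overlapped through a single pair of values, 38 ppm at the bottom of mouse 1 and 65.8 at the tip of mouse 5. *Pilrb2* was listed at 0 in all 5 tips and had 11.2 to 47.6 ppm at the bottom, so no fold is given, and it belongs to a family of near-identical genes. Genes with values this close to 0 rest on few reads, and the number of reads behind a TPM value is unknown.

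Of the 9 tested Hedgehog pathway genes 3 were higher and 6 lower at the tip. Of these, 3 had an unadjusted p under 0.05, all of them lower, beside 7.25% of all genes. The list's median log2 difference of -0.64 became -0.05 under ribosomal protein scaling, where 2 genes were lower at that p. Among all genes tested under that scaling, 341 were lower at that p, in place of 911. *Hhip*, a secreted Hedgehog-binding inhibitor and target of the pathway (chromosome 8, 79965851 to 80058006), had 6.93, 22.9, 57.3, 372 and 173 ppm at the bottom and 0, 12.1, 0.130, 1.16 and 2.37 at the tip. As mouse means, only the tip of mouse 2 reached into the bottom range. Of the 8 bottom sections, 4 exceeded all 8 tip sections, and the second bottom section of mouse 3 was at 0. The log2 difference was -4.53 ± 0.91 (SE, n = 5, adjusted p = 0.241 from limma). The transcription factor *Foxf1* (chromosome 8, 121084386 to 121088144) had 2.07, 18.7, 17.9, 4.88 and 4.06 ppm at the bottom and 0.207, 0, 0.612, 0 and 1.15 at the tip, with no overlap at a low level. Its relative *Foxf2* was lower in all 5 mice, at -1.74 ± 0.76 (SE, n = 5). The receptor *Ptch1* and the effector *Gli1*, both also targets of the pathway, had log2 differences of -1.06 and -0.36, the latter 0.20 under ribosomal protein scaling, and the ligands *Ihh* and *Shh* 0.10 and 1.41.

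A few muscle and matrix genes were lower at the tip at an unadjusted p under 0.05, beside 7.25% of all genes. List medians were -0.80 for smooth muscle, -0.86 for collagens and -0.76 for fibroblasts, none below the -1.06 of housekeeping genes. *Myl9*, a myosin light chain of smooth muscle (smooth muscle list, 10 tested, 0 higher and 2 lower at an unadjusted p under 0.05), had 87.2, 211, 72.1, 64.0 and 228 ppm at the bottom and 28.2, 0, 45.2, 3.59 and 0 at the tip. Its zones did not overlap, and the log2 difference was -4.33 ± 1.07 (SE, n = 5). At the villus center it ran from 0 to 6174 ppm. *Tagln*, another contractile gene, was lower in 4 of 5 mice at -2.18 ± 0.89 (SE, n = 5), and *Acta2* and *Myh11* were not analysed here. Of 12 tested collagens 0 were higher and 3 lower at an unadjusted p under 0.05. *Col14a1* had 18.8, 37.2, 29.1, 9.25 and 23.7 ppm at the bottom and 4.93, 8.87, 11.5, 1.65 and 6.70 at the tip, and its log2 difference of -1.72 ± 0.55 (SE, n = 5) moved least of these with a mouse left out, from -1.83 to -1.66. *Col1a1*, of the main fibrillar collagen, and *Col15a1*, of the vascular basement membrane, differed by -1.51 and -3.04, lower in all 5 mice. The matrix proteases *Mmp10* and *Mmp9* were lower in all 5 mice by -2.76 ± 0.61 and -3.57 ± 0.94 (SE, n = 5). The fibroblast list had 0 higher and 2 lower of 15 tested, *Sparc* and *Col1a1*. For *Sparc* and *Col1a1* the values under ribosomal protein scaling were -0.98 and -0.92, where the median of all genes was 0.77.

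**Figure D3:**
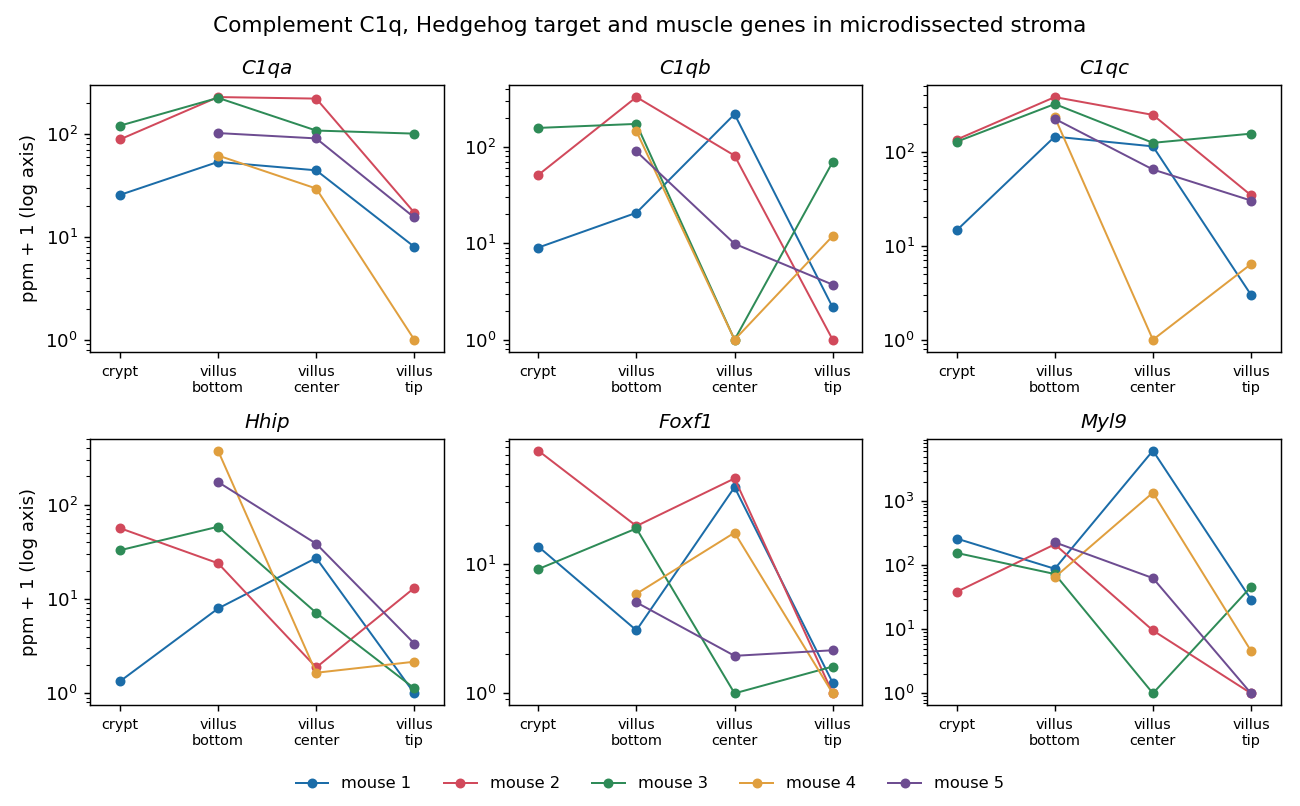
Level of the C1q chains, the Hedgehog target *Hhip*, the transcription factor *Foxf1* and the myosin light chain *Myl9* along 4 stromal zones, as ppm + 1 on log axes, with 1 line per mouse. Each of the 5 lines ends lower at the villus tip than at the villus bottom in all panels, while the villus center varies widely, from 0 to 6174 ppm for *Myl9*.

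Vessel and chemokine lists also held some lower genes, beside 7.25% of all genes lower at an unadjusted p under 0.05. The blood endothelium list had 11 tested genes, 0 higher and 3 lower at an unadjusted p under 0.05, and 0 lower both under ribosomal protein scaling (median -0.13 in place of -0.77) and without mice 4 and 5. *Plvap*, of fenestrated capillaries, had 58.0, 152, 144, 116 and 42.3 ppm at the bottom and 6.93, 113, 70.1, 1.87 and 31.2 at the tip, lower in each mouse but overlapping. *Kdr*, the VEGF receptor, and *Egfl7* differed by -1.67 ± 0.68 and -1.93 ± 0.69 (SE, n = 5), lower in 5 and 4 of 5 mice. *Aplnr*, the apelin receptor, was lower in all 5 at -3.12 ± 0.91 (SE, n = 5). Among 17 tested chemokines 0 were higher and 4 lower at an unadjusted p under 0.05. *Ccl21a*, made by lymphatic vessels, had 9.92, 149, 140, 0 and 57.5 ppm at the bottom and 0.629, 0, 13.1, 0 and 0 at the tip, and its reads may belong to near-identical copies of the gene. The eosinophil chemokine *Ccl11* had 464, 28.1, 16.9, 4.62 and 17.6 ppm against 0.820, 0, 0.130, 0 and 16.5. *Cxcl12* and the lymphocyte chemokine *Ccl5* differed by -2.44 and -2.18.

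Genes higher at the tip were fewer. *Fabp3*, a fatty acid-binding protein known from heart and muscle (chromosome 4, 130308595 to 130315463), had the smallest p among them. It had 0.585, 0, 0, 0 and 2.18 ppm at the bottom and 1.86, 44.6, 30.2, 114 and 26.3 at the tip. As mouse means the tip was higher in all 5 mice, and only the tip of mouse 1 lay in the bottom range. The tip sections of a mouse disagreed, at 89.2 and 0 ppm in mouse 2 and 58.9 and 1.41 in mouse 3. The log2 difference was 4.25 ± 0.89 (SE, n = 5, adjusted p = 0.265 from limma), and leaving out a mouse gave 3.61 to 5.10. With 5 ppm added before the log it was 2.62, and with 0.1 ppm added 6.45. At the villus center *Fabp3* was listed at 0 in mice 2 to 5. *Il15*, the cytokine that sustains intraepithelial lymphocytes and natural killer cells (chromosome 8, 82331632 to 82403222), had 56.9, 3.82, 13.3, 0 and 9.65 ppm at the bottom and 200, 137, 42.1, 30.5 and 30.4 at the tip. All tip means lay above 4 of the 5 bottom means. Sections of mouse 1 disagreed, at 2.21 and 112 ppm at the bottom and 368 and 32.1 at the tip. The log2 difference of *Il15* was 2.95 ± 0.71 (SE, n = 5), between 2.24 and 4.15 over all alternatives, and control epithelium held 19.1 CPM of it.

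*Pmp22*, a membrane protein first known from myelin (chromosome 11, 63128982 to 63159547), had 237, 45.3, 2.95, 0 and 0.922 ppm at the bottom and 1232, 65.3, 164, 4.11 and 317 at the tip. As mouse means the tip was higher in all 5 mice by uneven steps, and the log2 difference was 3.60 ± 0.91 (SE, n = 5). Sections of mouse 1 had 5.53 and 469 ppm at the bottom and 2458 and 5.63 at the tip. Those of mouse 2 had 77.1 and 13.4 ppm against 131 and 0, so single sections set the direction there. *Pmp22* was on the list of villus tip enterocyte genes, and control epithelium held 198 CPM. *Cpsf3*, the nuclease of mRNA 3′ end cleavage, had 6.44 to 29.2 ppm at the bottom and 8.10 to 504 at the tip (log2 difference 2.92 ± 0.65, SE, n = 5). *Ccdc120* did not overlap, at 0 to 2.84 ppm against 6.82 to 53.2. *B3gnt5*, a glycosyltransferase of lactosylceramides, and *Mkx*, a homeobox gene of tendon, had log2 differences of 2.46 and 3.12. *Cfap20*, a protein of cilia, had 89.4, 76.3, 522, 7039 and 2747 ppm at the bottom and 190, 1208, 2701, 17857 and 5508 at the tip, highest in mice 4 and 5 in both zones. The unannotated *5430401F13Rik* and *Gm10552* had log2 differences of 3.88 and 2.55, the former 2.50 without the second tip section of mouse 2 and 2.68 with first sections only.

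**Figure D4:**
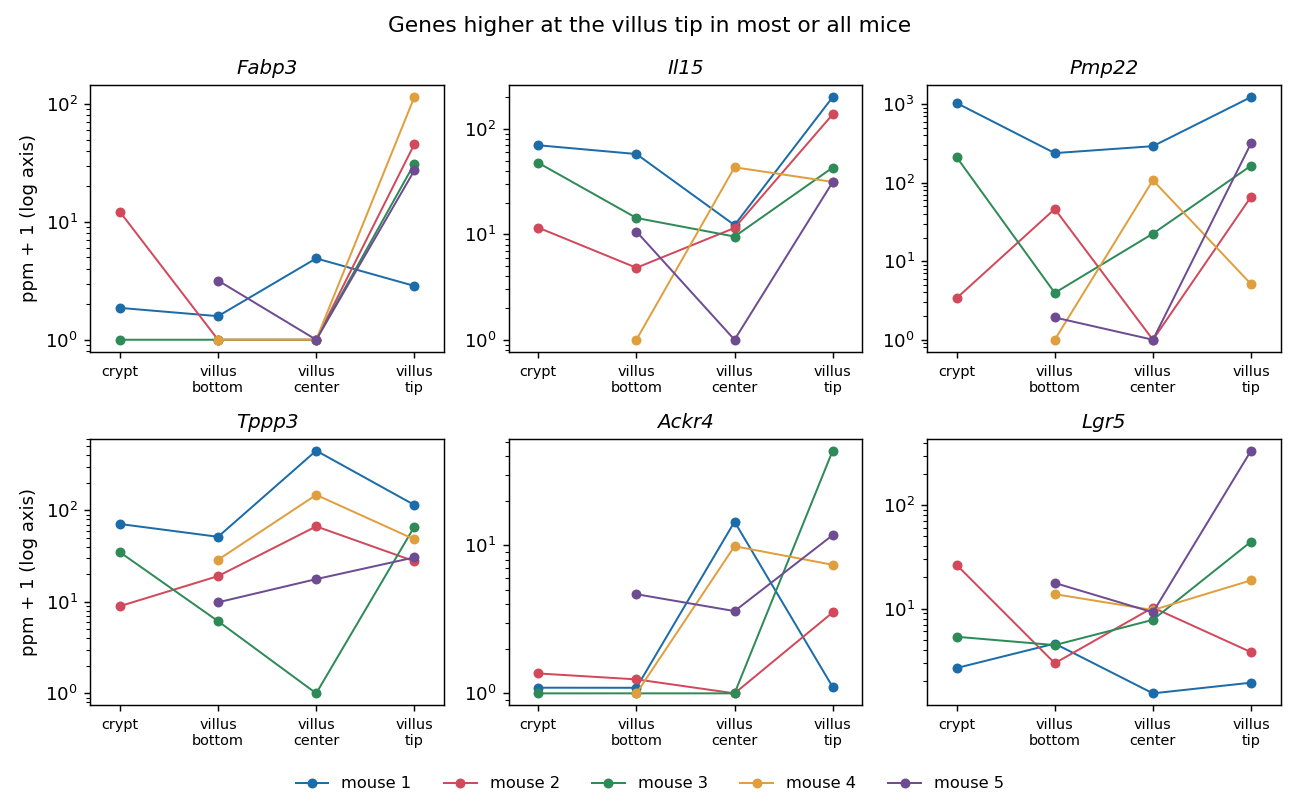
Level of 6 genes along 4 stromal zones, as ppm + 1 on log axes, with 1 line per mouse. The villus tip is above the villus bottom in all 5 mice for *Fabp3*, *Il15*, *Pmp22*, *Tppp3* and *Ackr4* and in 4 of 5 for *Lgr5*, whose tip values run from 0.921 to 334 ppm.

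Telocyte genes did not move as a group. Of 12 tested markers of subepithelial telocytes 1 was higher and 2 lower at an unadjusted p under 0.05, with a median log2 difference of -0.25. Of 10 tested genes that the study names for villus tip telocytes 1 was higher and 2 lower, with a median of 0.01. Beside these counts stand 2.10% of all genes higher and 7.25% lower. *Foxf1* and *Foxf2*, given above with the Hedgehog genes, are on the first list and were lower in all 5 mice. The second list was in part chosen by the study on samples of this series, so it is no independent evidence of a direction. *Lgr5*, a receptor for R-spondins and marker of crypt stem cells (chromosome 10, 115450311 to 115587780), had 3.58, 1.96, 3.43, 12.8 and 16.7 ppm at the bottom and 0.921, 2.79, 43.3, 17.7 and 334 at the tip. It was higher at the tip in 4 of 5 mice, with large gaps in mice 3 and 5 only. The log2 difference was 1.42 ± 0.84 (SE, n = 5, 95% interval -0.45 to 3.3, adjusted p = 0.609 from limma). *Tppp3*, a tubulin-binding protein, had 50.4, 18.1, 5.15, 27.8 and 8.89 ppm at the bottom and 114, 26.8, 65.4, 47.3 and 29.6 at the tip, higher in all 5 mice by 1.5 ± 0.59 (SE, n = 5). With only the first section of each mouse the sign of *Tppp3* turned, to -0.72. *Ackr4*, a scavenging receptor for *Ccl19*, *Ccl21* and *Ccl25* products, had 0.0905, 0.243, 0, 0 and 3.68 ppm at the bottom and 0.103, 2.52, 42.7, 6.40 and 10.7 at the tip. It was higher in all 5 mice by 2.24 ± 0.91 (SE, n = 5), though mouse 1 hardly differed. *Ackr4* is on the crypt fibroblast list as well as on the list of subepithelial telocytes.

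*Ly6a*, which encodes the surface protein SCA-1 (chromosome 15, 74994877 to 74998031), went the other way. It had 44.5, 160, 202, 79.1 and 63.5 ppm at the bottom and 2.55, 31.1, 100, 7.61 and 11.3 at the tip, lower in all 5 mice by -2.52 ± 0.56 (SE, n = 5, adjusted p = 0.268 from limma). Its relative *Ly6c1* was lower in 4 of 5 mice at -3.15 ± 0.99 (SE, n = 5), and vessels also express both genes. *Pdgfra*, the defining telocyte marker, had 3.72 to 14.0 ppm at the bottom and 0.690 to 10.1 at the tip, with a log2 difference of -0.44 ± 0.66 (SE, n = 5). Of genes linked to crypt fibroblasts, the complement genes *C4b* and *C3* had log2 differences of -2.48 and 1.27, in 4 of 5 mice each. *Grem1*, *Rspo3*, *Lama2* and *Angptl4* did not reach a zone mean of 5 ppm in either zone and were not tested. *Grem1*, a BMP inhibitor, had 0 to 3.64 ppm at the bottom and 0 to 9.08 at the tip, and *Rspo3*, which amplifies Wnt signals, 0.215 to 1.51 against 0 to 4.68.

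The signalling ligands *Bmp4*, *Wnt4* and *Egf* did not move in the same direction in all 5 mice. *Bmp4*, a ligand that restrains epithelial proliferation (chromosome 14, 46383520 to 46390669), had 4.70, 62.4, 42.3, 84.9 and 24.7 ppm at the bottom and 0.848, 3.34, 81.9, 361 and 19.7 at the tip. It was higher in 2 and lower in 3 mice, and the log2 difference was -0.56 (95% interval -2.37 to 1.26). That sign flipped to 0.27 without mouse 2 and to 0.16 under ribosomal protein scaling, where the median of all genes was 0.77. *Bmp2* had a log2 difference of 0.73 ± 0.89 (SE, n = 5), and -0.09 without mouse 4. *Wnt4*, a Wnt ligand (chromosome 4, 137277489 to 137299726), had 29.9, 141, 68.4, 292 and 190 ppm at the bottom and 28.5, 134, 206, 588 and 282 at the tip. Mice 1 and 2 hardly differed and mice 3 to 5 were higher. The log2 difference over all 5 mice was 0.60 (95% interval -0.45 to 1.65). *Egf*, the epidermal growth factor, differed by 1.25 ± 0.81 (SE, n = 5), higher in 3 of 5 mice, and *Egfr*, its receptor and an epithelial gene, was higher in all 5, at 1.15 to 10.5 ppm against 2.02 to 11.9. *Wnt5a*, *Lama5*, *Sfrp1* and *Il18r1* had log2 differences of -0.38, -0.30, -0.38 and 0.15 with overlapping zones, and each changed sign under at least 1 alternative. *Lama5* was -2.11 without the second tip section of mouse 2 and -2.26 with first sections only. The BMP inhibitor *Fst* and the Wnt antagonist *Dkk3* were each lower in all 5 mice, by -1.96 ± 0.81 and -1.84 ± 0.64 (SE, n = 5). Of 4 tested BMP antagonists 1 was higher and 3 lower, and of 6 tested Wnt antagonists 4 were higher and 2 lower. At an unadjusted p under 0.05, 1 gene of each list was lower, beside 7.25% of all genes. Under ribosomal protein scaling, and likewise without mice 4 and 5, 0 genes of either list were lower at that p.

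Epithelial genes that remained after the removal were followed as a measure of the tissue cut along with the stroma. The defining genes *Epcam*, *Krt8* and *Krt18* were not analysed here, and *Vil1*, *Cdh1* and *Krt20* were among the removed genes. Of 7 tested genes of villus tip enterocytes 2 were higher at an unadjusted p under 0.05, *Pmp22* and the nucleoside transporter *Slc28a2* (1.76 ± 0.73, SE, n = 5, higher in 4 of 5 mice). Of 5 tested genes of villus bottom enterocytes 2 were lower. *Reg3a*, an antimicrobial lectin, had 485, 259, 314, 198 and 71.7 ppm at the bottom and 489, 107, 122, 22.6 and 0 at the tip, and the cytokine *Il18* was lower in 4 of 5 mice at -1.97 ± 0.73 (SE, n = 5). The epithelial transcription factor *Cdx1* was lower in all 5 mice at -2.27 ± 0.77 (SE, n = 5). It is from the epithelium list, where 5 genes were tested, 0 higher and 5 lower, with a median log2 difference of -1.23. Of these, 1 was lower at an unadjusted p under 0.05. By mouse the list's medians were -0.26, -1.53, 0.25, -3.23 and -1.66 in mice 1 to 5. *Defa* genes encode the antimicrobial defensins of crypt Paneth cells. Of 18 tested, 9 were higher and 9 lower, with 3 and 0 at an unadjusted p under 0.05, beside 2.10% and 7.25% of all genes. All 22 listed, 4 of them among the removed genes, summed to 48321, 9922, 23456, 37.2 and 91207 ppm at the bottom and 410406, 27812, 468825, 47.2 and 1306 at the tip. The sum was higher at the tip in 4 of 5 mice and overlapped between the zones (two-sided exact sign-flip permutation test, p = 0.3125), and reads cannot be assigned firmly within this family. The part of epithelial RNA in the differences above was not tested.

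Other lists gave single members, beside 7.25% of all genes lower at an unadjusted p under 0.05. Of 13 tested genes of apoptosis and shedding 0 were higher and 3 lower at an unadjusted p under 0.05. *Casp8*, an initiator caspase, had 93.2, 26.4, 95.2, 330 and 61.9 ppm at the bottom and 37.3, 3.60, 57, 12.6 and 13.0 at the tip, lower in all 5 mice with overlapping zones. It and the cytokine *Tnf* had log2 differences of -2.27 and -1.71. Of 18 tested interferon-stimulated genes 2 were lower, the guanylate-binding proteins *Gbp2* and *Gbp3*, each in 4 of 5 mice. *Hif1a* and *Hk2* of the hypoxia response differed by -1.32 and -1.56, and *Car9*, a carbonic anhydrase of the same list, was higher in all 5 mice, at 13.2 to 35.9 ppm against 15.1 to 81.9. Housekeeping genes leaned lower as well, with 8 of 8 tested below 0, 1 of them at an unadjusted p under 0.05 (*Hprt*), and a median of -1.06, or -0.47 under ribosomal protein scaling. Under that scaling the B and plasma cell median was -2.68 and the macrophage median -1.41. Genes lower at an unadjusted p under 0.05 numbered, under that scaling, 8 of B and plasma cells, 3 of macrophages, 3 of chemokines, 2 of T cells, 1 each of collagens, smooth muscle and apoptosis, and 0 of fibroblasts and interferon-stimulated genes. The 7.25% is not the background of these counts. Among all genes tested under that scaling, 341 were lower and 974 higher at that p, in place of 911 and 264. The lists of BMP ligands, BMP receptors and targets, Wnt and R-spondin ligands, Wnt receptors, EGF family, PDGF family, Notch, ephrins, prostaglandin pathway, basement membrane, pericytes, mast cells and granulocytes, antigen presentation, goblet cells, enteroendocrine and tuft cells, and Paneth, stem and cycling crypt cells had 0 genes at an unadjusted p under 0.05 in limma in either direction.

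**Figure D5:**
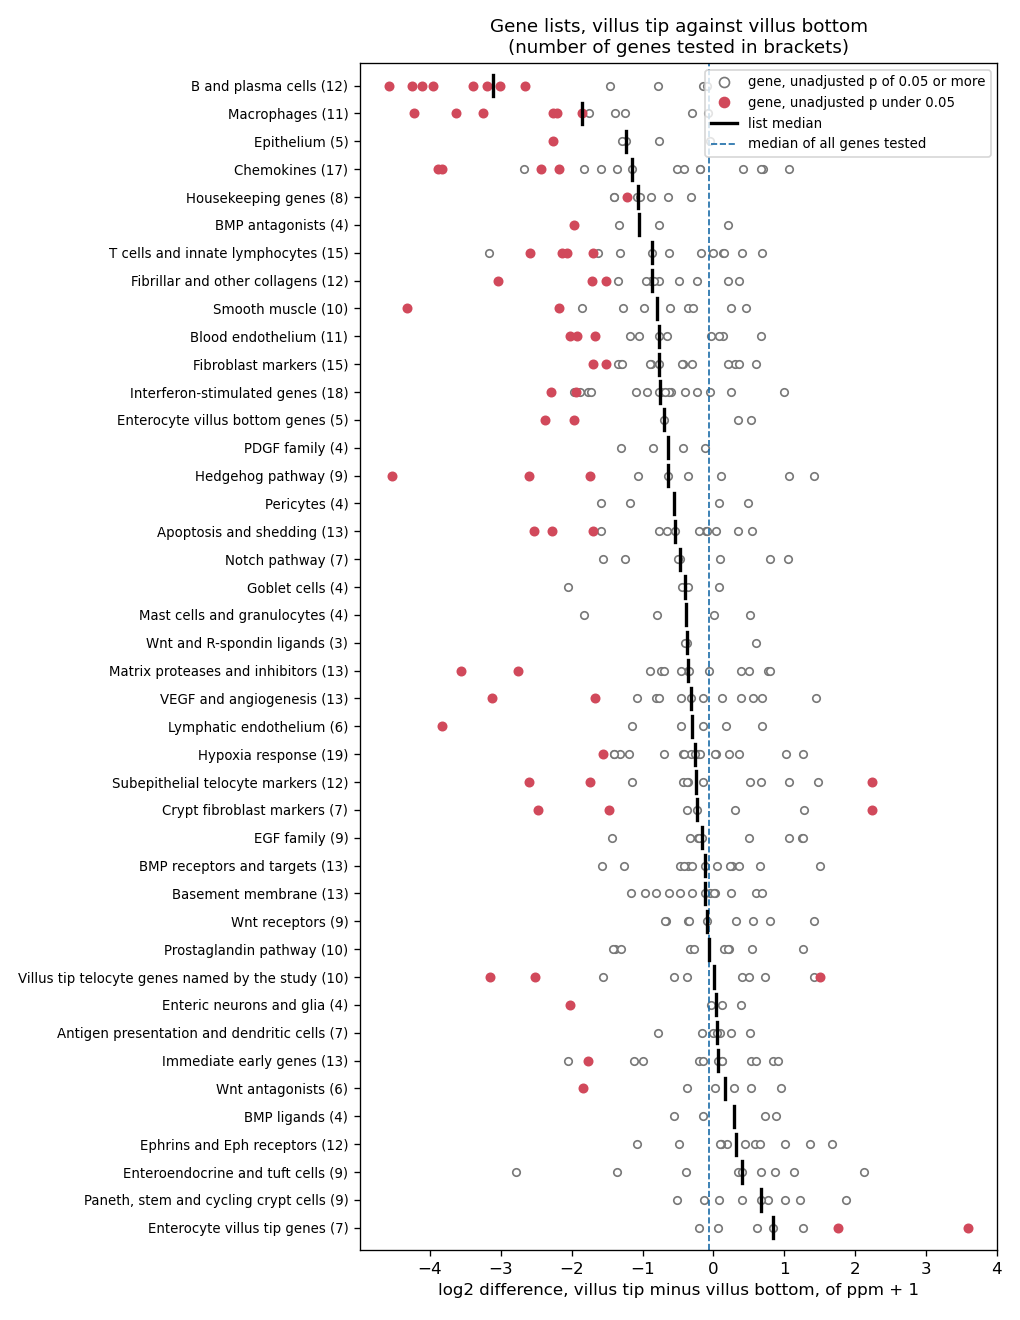
Log2 difference, villus tip minus villus bottom, of every tested gene in 42 lists, with filled points for an unadjusted p under 0.05 in limma, black bars for list medians and a dashed line for the median of all 12562 genes. The B and plasma cell list (median -3.11) and the macrophage list (median -1.85) lie farthest to the left. Telocyte, Wnt, BMP ligand and BMP receptor lists spread around the dashed line, while BMP antagonists have a median of -1.05.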

How the data were processed

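RNA of LCM stroma was amplified with SMART-Seq v4. The authors deposited TPM per gene, made with kallisto on coding transcripts of GRCm38 (bcl2fastq 2.15.0.4 per the labels). The kit does not mark strand, so overlapping antisense genes cannot be told apart. TPM keeps no read number, so depth per sample is unknown. The authors' deposited UMI counts of 4 control epithelium samples (748458 to 4210158 UMIs) served to find enterocyte genes: 487 genes made up 50% of UMIs, and 377 listed genes, neither ribosomal nor mitochondrial, were removed. By the study's methods this epithelium came from other mice, older males with the *Lgr5-GFP-DTR* knock-in that were given saline. The study removed 31 genes found in other data, a list not used here, and removal of the 31 most abundant genes of the control epithelium was run as an alternative. Of 20882 listed genes, 104 names occurred more than once and were told apart by identifier.

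Values were scaled to ppm, averaged per mouse and zone, and compared as log2(ppm + 1), a scale that understates changes of low genes. The test was limma 3.58.1 (R 4.3.3, variance trend, mouse as block), two-sided, for genes with a zone mean above 5 ppm, and was tested on simulated data. The mouse pairs the zones, and deviations of its zones correlated with r of 0.10 to 0.45. Genes named are the 10 of smallest p per direction with the same direction in all 5 mice, 15 genes the study discusses, and leading members of 42 lists. Members and lists were chosen with earlier results of these data known. Coordinates are from GENCODE M21. Single cells were not used here. Some members of the lists are not reported here.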

Additional observations from a re-analysis of the deposited data

Results flagged for a closer look

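*Derl3* was marked because 1 mouse stood apart from the other 4. Its log2 difference, tip minus bottom, was -1.90 in mouse 5, the smallest in size of the 5 mice, where the bottom value was the lowest (60.7 ppm) and the tip value the highest (15.5 ppm). It was the only one of 41 groups of 5 values examined to be marked, and chance marks about 1 in 20.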

How the results depend on the processing

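Limits: TPM hides depth, epithelial RNA remained, mice 4 and 5 gave 1 section per zone, and 5 mice cannot reach an exact p below 0.0625. Genes past adjusted p 0.05 in limma numbered 0 in either direction except in 3 alternatives, 2 of them chosen after the data were seen. Ribosomal protein scaling gave 3 higher (*Pmp22*, *5430401F13Rik* and *Defa36*) and 10 lower, among them *Igkc*, *Igha* and *Jchain*. Without mice 4 and 5, 1 was higher (*Defa36*) and 6 lower. With each mouse left out in turn, 0 were higher and 0 to 1 lower (*Gm9844*, without mouse 2). The replicate block changed no adjusted call, as the paired and unpaired fits both had 0.

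At an unadjusted p under 0.05, higher genes numbered 103 without the replicate block, 571 with quantile normalization, 168 with a zone mean above 20 ppm, 974 with ribosomal protein scaling, 162 without mice 4 and 5, and 155 to 485 with each mouse left out. Lower genes numbered 578 without the replicate block, 547 with first sections only, 341 with ribosomal protein scaling and 711 to 925 with each mouse left out.

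The difference in the share of removed genes became 1.89 points for 31 genes and ran from -3.15 to 2.75 with each mouse left out. Among the genes the study discusses, signs reversed with each mouse left out for *Bmp4* (-1.22 to 0.27), *Bmp2* (-0.087 to 1.28), *Il18r1* (-0.17 to 0.79), *Lama5* (-1.0 to 0.43) and *Sfrp1* (-0.97 to 0.63). Ribosomal protein scaling turned the sign of *Bmp4* (0.16), *Wnt5a* (0.25), *Lama5* (0.43), *Pdgfra* (0.39) and *Sfrp1* (0.35). All of these stayed below the median of all genes under that scaling, 0.77. *Bmp2* became -0.10 without the second tip section of mouse 2 and -0.33 without mice 4 and 5, and *Il18r1* -0.076 with 5 ppm added. Of list members, *Tppp3*, *Prdm1*, *Ms4a1*, *Cd68*, *Mertk*, *Cd3e*, *Cd3d*, *Gli1* and *Ihh* also changed sign in some alternative. The cause was not tested. Medians of the B and plasma cell, macrophage and T cell lists kept their sign in all 24 alternatives.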
